A study of Macaca mulatta and Mus musculus with 5 samples.

Results

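The cells described here were rhesus macaque barcodes chosen by measured UMI counts, with UMIs of both IL7R and CD3E and none of NKG7, GZMK, GZMB or MS4A1, among barcodes with 300 or more detected genes. A UMI is a molecular tag that counts 1 captured RNA molecule. The rule picked 129 of 20998 such macaque barcodes, in a series of 34959 barcodes that also holds mouse meninges. Of these members, 63 and 54 came from the 2 meningeal channels and 5 and 7 from the 2 splenic channels. The animals were female Chinese rhesus macaques aged 4 to 8 years, with no treatment or transgene given in the labels. Per the labels, sorted immune cells were loaded at 8000 per 10x channel, 3'-end libraries were made, and the macaque sort is written as CD45, CD11b and CD3, each followed by a dash. Nothing in the labels tells if the channels of a tissue were taken from separate animals, so p-values here measure only the spread between channels, which may be technical.

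IL7R encodes the interleukin-7 receptor alpha chain, through which naive and memory T cells and innate lymphoid cells receive a survival signal. CD3E is a signalling chain of the T cell receptor complex. T cells that lack killing machinery are mostly helper T cells, marked by the coreceptor CD4, and regulatory T cells, marked by CTLA4 and IL2RA. GATA3 is a transcription factor needed for T cell development and for type 2 helper cells, ICOS is a costimulatory receptor of activated helper cells, and CCL20 is a chemokine that attracts CCR6-bearing cells. T cells of the meninges, the membranes around the brain, are known for patrolling the border of the central nervous system.

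The channels held 19018146 and 19763332 UMIs in meninges and 20110117 and 21992144 UMIs in spleen. Members had median depths of 4464 and 5350 UMIs in the meningeal channels and 1444 and 2433 UMIs in the splenic channels. All members of a channel together gave 281036 and 267380 UMIs in meninges against 14399 and 26162 UMIs in spleen, so splenic levels rest on few molecules. Libraries shared between 4 and 11 barcodes per pair. Of the barcodes shared by the meningeal channels, 1 was a member, in 1 channel only. Levels are given below as CPM, the UMIs of a gene scaled to a common total of all UMIs summed over the cells of a class in a channel. Since these are 3'-end counts, a CPM counts molecules and is not divided by gene length.

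The rule's own genes describe the choice and were not tested. The lowest admissible values, 1 UMI of IL7R and 1 of CD3E, were held by 5 and 2 meningeal members and by 1 and 0 splenic members. Exactly 1 CD3E UMI was found in 27 and 16 meningeal members and in 3 and 5 splenic members. Just outside the rule, 14 and 8 meningeal barcodes and 2 and 5 splenic barcodes missed it by exactly 1 UMI over the cytotoxic genes. A further 20 and 15 meningeal barcodes and 6 and 8 splenic barcodes met it except that IL7R was 0, and 99 and 96 meningeal barcodes and 11 and 15 splenic barcodes met it except that CD3E was 0.

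The T cell label went with CD3D and TRAC, genes outside the rule, in most meningeal members. CD3D, another chain of the receptor complex, had UMIs in 56 of 63 and 50 of 54 meningeal members and in 4 of 5 and 5 of 7 splenic members. TRAC, the constant region of the receptor alpha chain, had UMIs in 52 and 47 meningeal members and in 2 and 7 splenic members. The markers ICOS, CD4, CD6, CAMK4 and BCL11B came from the list used to propose these cells, so their shares are a description and no support. At least 1 of them was detected in 87.3% and 92.6% of meningeal members. The same was true of 54.1% and 54.3% of meningeal CD3E cells with a UMI of NKG7, GZMK or GZMB, of 46.5% and 39.6% of meningeal IL7R cells without CD3E, and of 7.11% and 7.43% of meningeal MS4A1 cells. In spleen the shares lay closer, at 80% and 71.4% of members against 72.7% and 66.7% of IL7R cells without CD3E. Splenic CD3E cells with a cytotoxic gene stood at 37.9% and 34.3%. With each cell thinned to 1000 UMIs the shares were 50% and 54.9% of meningeal members, against 21.9% and 21.2% of CD3E cells with a cytotoxic gene. Thinning left out 3 and 3 meningeal members and 19 and 38 of those comparison cells for having too few UMIs.

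Markers of other cell types were sparse in members, with some exceptions. Of 11 myeloid markers measured, 4 and 3 had a UMI in the meningeal channels, at a summed 24.9 and 18.7 CPM, and 0 and 1 in the splenic channels, at 0 and 38.2 CPM; LYZ, IL1B, CSF1R, C1QC, S100A8 and FCER1G were at 0 in all channels. Natural killer markers summed to 128 and 52.4 CPM in meningeal members and to 0 and 76.4 CPM in splenic members, with NCR1 and KLRF1 at 0 in all of them. B cell markers summed to 235 and 59.8 CPM in meningeal members and to 208 and 8142 CPM in splenic members. In the last of these, 1 cell carried all 205 UMIs of IGHM and all 47 of JCHAIN, immunoglobulin genes of B and plasma cells. In meningeal channel 1, another cell carried 20 of the 22 UMIs of CD79B. The haemoglobin gene HBA was found in 21 and 21 meningeal members and in 0 and 2 splenic members. PTPRC, which encodes CD45, was detected in 60 and 54 meningeal members and in 4 and 6 splenic members, and ITGAM, which encodes CD11b, in 1 meningeal member.

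Members made up a larger share of meningeal than of splenic barcodes. They were 1.55% (exact Clopper-Pearson 95% interval 1.19 to 1.98) and 1.25% (0.943 to 1.63) of the meningeal barcodes, against 0.0856% (0.0278 to 0.200) and 0.103% (0.0415 to 0.213) of the splenic barcodes. The channels of 1 tissue overlapped within counting error and the tissues did not overlap. The mean share was 1.40% ± 0.209 in meninges and 0.0944% ± 0.0124 in spleen (SD, n = 2 channels each), a ratio of 14.8. A two-sided exact permutation test over channels gave p = 0.33, the smallest that 2 against 2 channels allow. With each cell thinned to 1000 UMIs before the rule was applied, the means were 0.672% in meninges and 0.0516% in spleen, a ratio of 13.0. With 2 or more UMIs of both IL7R and CD3E required they were 0.813% in meninges and 0.0319% in spleen, a ratio of 25.5. A larger meningeal share was not particular to members. CD3E cells with a cytotoxic gene were 824 of 4068 and 882 of 4308 meningeal barcodes, against 116 of 5839 and 178 of 6783 splenic barcodes. IL7R cells without CD3E numbered 99 and 96 in meninges against 11 and 15 in spleen. MS4A1 cells went the other way, at 1715 and 1885 in meninges against 4976 and 5855 in spleen. Sorting comes before these shares, so they are shares of sorted and loaded cells and not of the tissue. If the dash after CD3 marks cells without surface CD3, members are cells that passed a gate against their own marker, and a difference in the tissue cannot be told apart from one in how many passed the gate. The intervals cover counting error only.

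**Figure D1:**
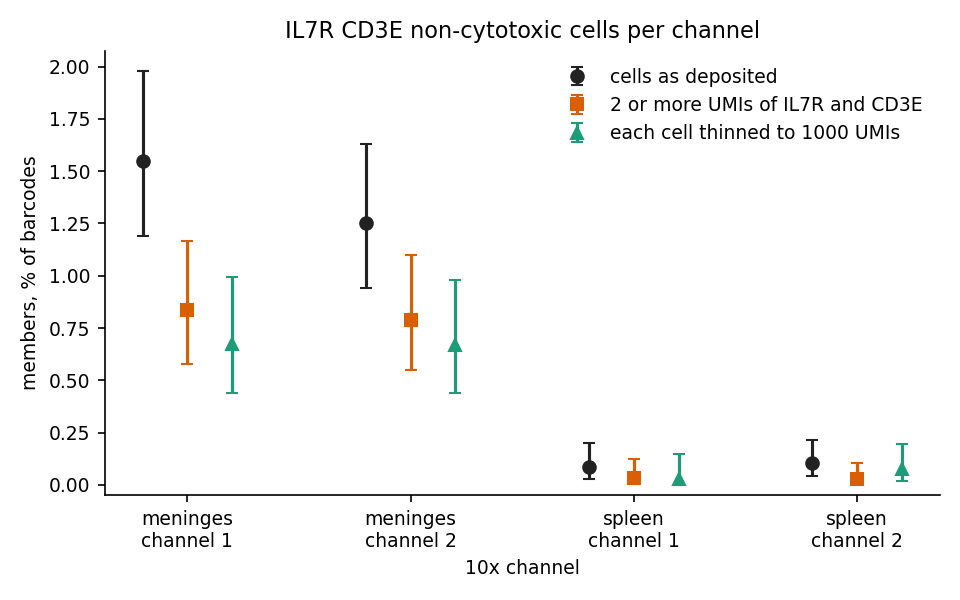
Share of barcodes that met the rule in each 10x channel (x axis), as percent of barcodes with 300 or more genes (y axis), under the rule as given, with 2 or more UMIs of IL7R and CD3E, and with each cell thinned to 1000 UMIs. Points are channels and bars exact 95% intervals; under the rule as given the meningeal channels lie at 1.55% and 1.25%, above the splenic channels at 0.0856% and 0.103%.

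CD4 was found in about as many members of either meningeal channel. It had UMIs in 30 of 63 (47.6%, exact 95% interval 34.9 to 60.6) and 25 of 54 meningeal members (46.3%, 32.6 to 60.4), at 199 and 180 CPM. In spleen 3 of 5 and 2 of 7 members had CD4 UMIs, at 417 and 76.4 CPM. MS4A1 cells of the meninges, which should lack the gene, had CD4 UMIs in 3 of 1715 and 10 of 1885 cells, at median depths of 4762 and 4711 UMIs, so the share in members lay far above that background. CD8A, the coreceptor of killer T cells, was found in 5 and 8 meningeal members, at 35.6 and 41.1 CPM. Counting both genes, 28 and 23 meningeal members had CD4 without CD8A, 3 and 6 had CD8A without CD4, 2 and 2 had both and 30 and 23 had neither. No member had more than 5 CD4 UMIs. With cells thinned to 1000 UMIs, 16.7% and 15.7% of meningeal members had CD4, against 1.61% and 2.01% of CD3E cells with a cytotoxic gene.

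GATA3 was the gene of the 5 examined most closely that the most meningeal members carried. It had UMIs in 32 of 63 (50.8%, 37.9 to 63.6) and 32 of 54 meningeal members (59.3%, 45.0 to 72.4), at 256 and 254 CPM, and in 2 of 5 and 2 of 7 splenic members, at 139 and 115 CPM. Meningeal MS4A1 cells had it in 40 of 1715 and 40 of 1885 cells. With cells thinned to 1000 UMIs the shares were 10% and 19.6% of meningeal members, against 6.71% and 8.06% of CD3E cells with a cytotoxic gene. ICOS was found in 23 (36.5%, 24.7 to 49.6) and 20 meningeal members (37.0%, 24.3 to 51.3), at 189 and 101 CPM, and in 1 and 0 splenic members. CTLA4, an inhibitory receptor, was found in 15 (23.8%, 14.0 to 36.2) and 15 meningeal members (27.8%, 16.5 to 41.6), at 71.2 and 135 CPM. It was not listed for either splenic channel, where the tables list genes seen in at least 3 cells, so its splenic UMIs were counted as 0. Fewer than 3 cells of a splenic channel could still carry it. Even a measured 0 among 5 and 7 splenic members would allow a share of up to 52.2% and 41.0% by the exact interval. No absence in spleen was therefore detectable at this number of cells.

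CCL20 was a matter of single cells. It had 95 UMIs in meningeal channel 1, of which 82 came from 1 cell and the other 13 from 2 further cells. Meningeal channel 2 had none. CCL20 was not listed for either splenic channel, so it was counted as 0 there, though fewer than 3 cells of a channel could carry it. Only 1 of the 3 cells had a CD4 UMI together with CD8A at 0, and it held 1 of the 95 CCL20 UMIs. With 3 such cells in 1 channel, and 3 and 6 cells with CD8A and no CD4, both of these divisions of the members fell under the 20 cells needed for a summed comparison and no test was made.

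CTLA4 was found more often in members with ICOS than in members without it. Over both meningeal channels, CTLA4 was detected in 19 of 43 members with ICOS (44.2%), against 11 of 74 members without ICOS (14.9%). This held in either channel, at 43.5% against 12.5% in channel 1 and 45.0% against 17.6% in channel 2. GATA3 was detected in 34 of 55 members with CD4 (61.8%) and 30 of 62 members without CD4 (48.4%), but in channel 2 the shares were 60.0% and 58.6%. GATA3 and CTLA4 did not go together, since CTLA4 was found in 15 of 64 members with GATA3 (23.4%) and 15 of 53 without it (28.3%). Deeper cells show more of every gene, so these shares describe the cells and were not tested.

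Sums of members were compared with sums of the CD3E cells that carried a cytotoxic gene, 824 and 882 cells in the meningeal channels and 116 and 178 in the splenic channels, to ask how members differ from cytotoxic CD3E cells of the same channel. Natural killer markers were found in 88.2% and 85.9% of these meningeal comparison cells, at a summed 2709 and 2705 CPM, against 14.3% and 24.1% of meningeal members at 128 and 52.4 CPM. The class may therefore hold natural killer cells beside T cells, and their part in the differences below was not tested. IL7R was required of members only and was found in 25.8% and 26.1% of the meningeal comparison cells. The classes therefore also differ by IL7R, and the part of genes that go with IL7R in the differences below was not tested. Of 5113 genes tested with edgeR, 600 (11.7%) differed in meninges at an adjusted p under 0.05, 318 higher (6.22%) and 282 lower (5.52%) in members. All 7 markers outside the rule were higher, 5 of them from the list used to propose these cells, with GATA3 and CTLA4 added. CD4 had 199 and 180 CPM in members against 16.98 and 19.1 CPM in CD3E cells with a cytotoxic gene, a log2 fold change of 3.58 ± 0.29 (SE; adjusted p = 1.75e-31). CTLA4 had 71.2 and 135 CPM in members against 8.03 and 8.09 CPM (3.82 ± 0.43, adjusted p = 1.5e-16). ICOS had 189 and 101 CPM in members against 34.0 and 41.0 CPM (2.13 ± 0.30), and GATA3 256 and 254 CPM in members against 69.4 and 69.0 CPM (2.07 ± 0.23). CD6, a receptor that tunes T cell receptor signals, had 135 and 135 CPM in members against 31.5 and 29.2 CPM (2.34 ± 0.31). The calcium-dependent kinase CAMK4 (0.95 ± 0.21) and the T lineage factor BCL11B (1.07 ± 0.30) differed least. In no case did the classes overlap.

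The calls for CD4 and CD6 held in all 13 alternatives each, with adjusted p from 4.16e-38 to 1.1e-06 for CD4 and from 2.87e-15 to 0.00268 for CD6. CTLA4 was not past the threshold with DESeq2 (adjusted p = 0.952; range over alternatives 3.07e-17 to 0.952). GATA3 was not past it with cells thinned to 1000 UMIs (log2 fold change 1.24, adjusted p = 0.108; range 3.61e-22 to 0.108), nor ICOS without meningeal channel 1 (1.45, adjusted p = 0.191; range 1.22e-13 to 0.191). BCL11B lost the threshold in 4 of 12 alternatives (adjusted p from 0.000829 to 0.923) and CAMK4 in 5 of 13 (1.38e-05 to 0.805).

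**Figure D2:**
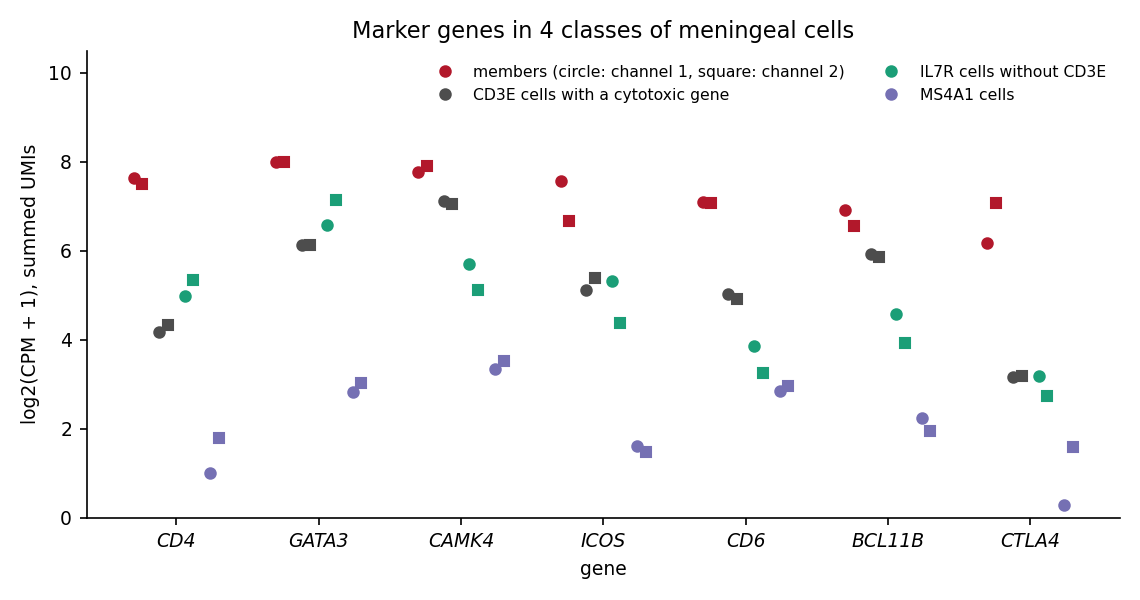
Level of 7 marker genes (x axis) as log2(CPM + 1) of summed UMIs (y axis) in 4 classes of meningeal cells, with 1 point per channel. Members lie above the other 3 classes for each gene in both channels; CD4 stands at 199 and 180 CPM in members against 16.98 and 19.1 CPM in CD3E cells with a cytotoxic gene.

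Receptors of helper and regulatory T cells were higher in members. Of 7 costimulation and checkpoint genes tested, 4 were higher and none lower, with a list median of 2.13 on the log2 scale against -0.02 over all genes tested. CD28, the main costimulatory receptor, had 181 and 168 CPM in members against 13.3 and 13.0 CPM in CD3E cells with a cytotoxic gene (3.92 ± 0.31, adjusted p = 6.29e-34). CD40LG, with which helper cells license B cells, had 89.0 and 71.1 CPM in members against 8.95 and 4.33 CPM (3.79 ± 0.47). TIGIT, an inhibitory receptor, had 110 and 221 CPM in members against 160 and 146 CPM and did not pass (adjusted p = 0.541). Of 6 regulatory T cell genes tested, CTLA4, IL2RA (3.08 ± 0.29) and RTKN2 (5.52 ± 0.75) were higher and IKZF2 was lower (-1.59 ± 0.41). IL2RA, the high-affinity interleukin-2 receptor chain, had 203 and 146 CPM in members against 22.8 and 24.0 CPM; it was found in 28 and 13 members. FOXP3, the defining factor of regulatory T cells, was not analysed here.

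Cytokine receptors and polarity genes followed with few members each. Of 11 cytokine receptor genes tested, IL6R (5.50 ± 0.44), IL6ST, IL4R and IL2RA were higher and IL2RB was lower (-1.28 ± 0.25). The skin and type 2 homing receptor CCR4 had 107 and 116 CPM in members against 0.926 and 0.578 CPM (7.19 ± 0.58, adjusted p = 6.27e-33), and was found in 18 of 63 and 20 of 54 members. The type 2 cytokine IL5 had no UMI in any member. IL13, IL17A and IL22 were not analysed here. MAF, a factor of several helper subsets, had 85.4 and 52.4 CPM in members against 7.72 and 10.7 CPM (3.08 ± 0.47). TBX21, the type 1 master regulator, had UMIs in 2 and 0 meningeal members. Of 4 type 1 genes tested, 3 were lower and none higher: CCL5, EOMES (-3.49 ± 0.61) and STAT4 (-0.89 ± 0.28). CCL5 is also on the list of cytotoxic granule genes and EOMES on that of natural killer genes. The direction of these genes of killing is a description and no support, since the rule excluded cytotoxic genes. The surface ligands LTB, which organises lymphoid tissue (2.24 ± 0.19), and TNFSF8 (2.38 ± 0.34) were higher, while TGFB1 was lower (-1.01 ± 0.20).

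Genes of naive cells and of exit from tissue were higher in members. At least 1 gene of this list was found in 73.0% and 87.0% of meningeal members, against 66.9% and 63.9% of meningeal CD3E cells with a cytotoxic gene. Of 8 tested, 5 were higher and none lower, with a median of 1.53. LEF1, a factor of naive and memory T cells, had 146 and 89.8 CPM in members against 8.95 and 4.04 CPM (4.36 ± 0.41). CCR7, which guides cells to lymph nodes, had 46.3 and 97.2 CPM in members against 8.03 and 9.82 CPM (3.16 ± 0.47) and was found in 7 and 11 meningeal members. S1PR1, the receptor for exit into lymph and blood, had 139 and 71.1 CPM in members against 40.7 and 34.4 CPM (1.65 ± 0.32).

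Of 13 tissue retention genes tested, 5 were higher and 3 lower. The integrin chain ITGB1 had 1729 and 1915 CPM in members against 357 and 334 CPM (2.59 ± 0.21), and was found in 56 of 63 and 52 of 54 members. LMNA, a nuclear envelope protein, had 875 and 456 CPM in members against 133 and 101 CPM (2.66 ± 0.19). GPR183, an oxysterol receptor that positions lymphocytes, had 701 and 905 CPM in members against 165 and 152 CPM (2.53 ± 0.18). The chemokine receptor CXCR4 was lower, with 882 and 467.5 CPM in members against 1945 and 1922 CPM (-1.37 ± 0.21). CD69, the retention receptor of resident T cells, had 1986 and 2203 CPM in members against 1675 and 1845 CPM and did not pass (0.44 ± 0.22, adjusted p = 0.213).

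T cell receptor genes differed less. Of 15 tested, 5 were higher and 2 lower, with a median of 0.35. TRAC had 911 and 853 CPM in members against 623 and 624 CPM (0.69 ± 0.19), and CD2 516 and 527 CPM in members against 309 and 295 CPM (0.98 ± 0.19). CD3D (0.35 ± 0.20) and CD3G (-0.32 ± 0.21) did not pass, with adjusted p of 0.297 and 0.405. CD8A was lower, at 35.6 and 41.1 CPM in members against 232 and 247 CPM (-2.45 ± 0.31). Among T lineage factors, RUNX3, TOX and IKZF3 were lower, at -1.54, -1.73 and -1.65 on the log2 scale.

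Genes of killing moved with the ones the rule had excluded, so their direction is a description and no support. All 8 cytotoxic granule genes tested and all 7 natural killer genes tested were lower in members. The rule's absence of NKG7, GZMK and GZMB extended to GZMA (17.8 and 11.2 CPM in members against 792 and 956 CPM) and CCL5 (107 and 26.2 CPM in members against 3353 and 3263 CPM). CX3CR1, NCR1, AFAP1L2 and ADGRG1 had no UMI in any meningeal member, which puts them at least 32.2-fold, 15.46-fold, 15.03-fold and 14.4-fold lower, taking 3 UMIs over the 2 channels as the limit of a count of 0. ADRB1, FCGR3 and SLC11A1 had at most 3 UMIs over both channels, and the chemokine CCL4L1 had 10.7 and 7.48 CPM in members against 513 and 493 CPM.

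**Figure D3:**
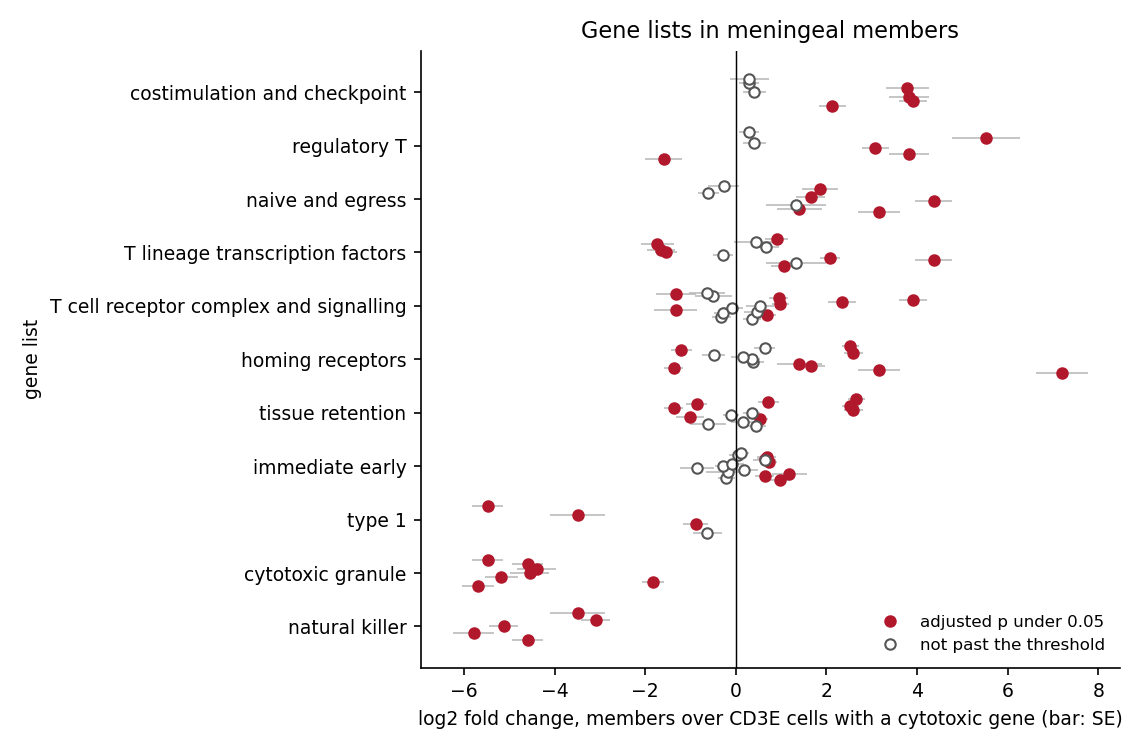
Log2 fold change of meningeal members over meningeal CD3E cells with a cytotoxic gene (x axis, bars SE) for each tested gene of 11 lists (y axis); filled points passed an adjusted p of 0.05 and open ones did not. NCR1 and KLRF1, with 0 UMIs in members, are not drawn. Costimulation genes stand right of 0, with CD28 at 3.92, and cytotoxic granule and natural killer genes left of it, with GZMA at -5.69.

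The remaining large differences were in genes of no list or of the interferon response. TNFSF10, the death ligand TRAIL, had 441 and 359 CPM in members against 28.7 and 24.0 CPM (4.11 ± 0.23, adjusted p = 2.76e-67). It was found in 36 of 63 and 28 of 54 members with at most 8 UMIs a cell. Against CD3E cells with a cytotoxic gene it passed in all 13 alternatives, with adjusted p no higher than 4.58e-17. It did not pass in the narrower comparison with IL7R cells described below (-0.80 ± 0.36, adjusted p = 0.272). SPOCK2, a secreted proteoglycan, had 391 and 494 CPM in members against 65.1 and 74.8 CPM (2.85 ± 0.20), found in 47 and 41 members. FGL2, a fibrinogen-like protein, had 793 and 677 CPM in members against 178 and 163 CPM (2.30 ± 0.18), found in 49 and 44 members. Of 15 immediate early genes, which respond within minutes to stimulation, 6 were higher and none lower. FOS had 2672 and 2771 CPM in members against 1515 and 1645 CPM (0.98 ± 0.22), and JUN 1512 and 1462 CPM in members against 1029 and 1167 CPM (0.63 ± 0.21).

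Interferon-response genes were high in members through very few cells. Of 12 tested, 8 were higher and 1 (IRF1) was lower than in CD3E cells with a cytotoxic gene, with a median of 1.88. IFIT2 had 295 and 378 CPM in members against 36.1 and 28.3 CPM (3.58 ± 0.23), IFIT3 167 and 348 CPM against 30.6 and 26.3 CPM (3.33 ± 0.26), and ISG15 78.3 and 759 CPM against 35.2 and 46.5 CPM (3.26 ± 0.24). IFIT2 was found in only 4 and 4 members, and single cells held 80 and 97 of its UMIs. Over 9 interferon-response genes together, 1 cell held 146 of 255 UMIs in meningeal channel 1 and 1 cell held 346 of 597 UMIs in channel 2, and the 5 highest cells held 71.8% and 89.3%. In CD3E cells with a cytotoxic gene the 5 highest cells held 6.74% and 5.26% of these UMIs. Members with UMIs of 3 or more of the 9 genes numbered 4 (6.35%) and 9 (16.7%), against 7.52% and 6.46% of CD3E cells with a cytotoxic gene. Without the highest cell of each sum, an alternative chosen after seeing the data, 3 of 10 genes tested were higher and 1 lower, with a median of 0.61. IFIT2 then stood at -1.12 (adjusted p = 0.314; range over alternatives 3.21e-60 to 0.314) and IFIT3 at 0.56 (adjusted p = 0.587; range 5.5e-42 to 0.587), whereas MX1 and ISG15 were still past the threshold at 4.78 and 1.77. In meningeal channel 2 the next cells held 102, 55 and 24 UMIs of the 9 genes, and the one after them 6. The calls that remained may therefore still rest on few cells, which was not tested. TNFSF10, which is also known as an interferon target, was 4.09 ± 0.23 without the highest cell of each sum. Over all 318 genes that were higher in members, the highest cell of a meningeal channel held a median of 12.03% of a gene's UMIs, and in 15 genes it held over 50% in at least 1 channel.

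**Figure D4:**
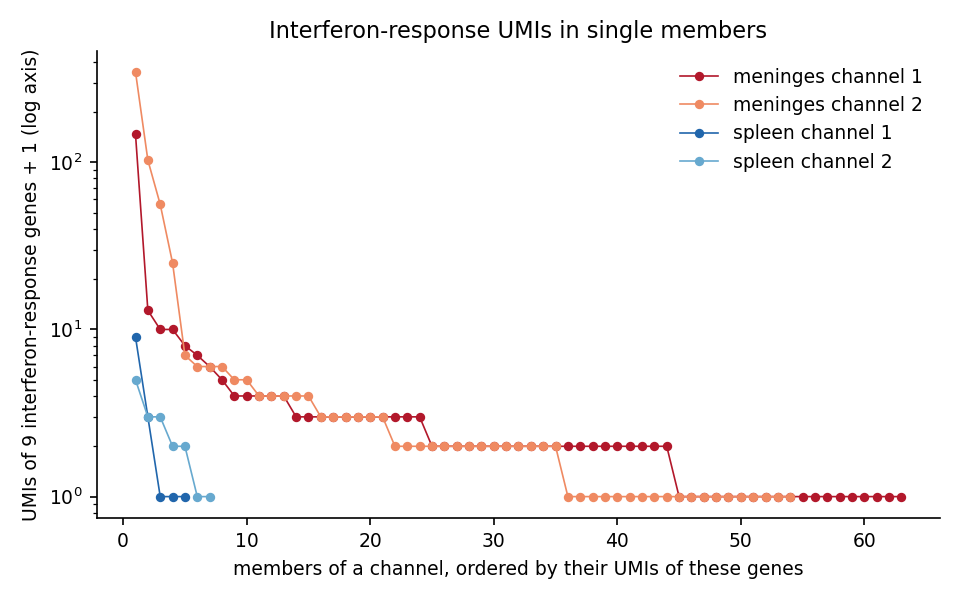
UMIs of 9 interferon-response genes in each member (y axis, plus 1, log axis), with the members of a channel ordered by them (x axis), 1 point per cell and 1 line per channel. The leading cells of the meningeal channels held 146 and 346 UMIs, while the leading splenic cells held 8 and 4.

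Members were next set against cells that met the rule except that CD3E was 0, to ask what came with CD3E among IL7R cells. These were 99 and 96 meningeal cells and 11 and 15 splenic cells. Of 3773 genes tested, 870 (23.1%) differed in meninges, 412 higher (10.9%) and 458 lower (12.1%) in members. T cell receptor genes were higher as a group, 12 of 13 tested with none lower and a median of 2.80 against -0.02 over all genes. The classes were split by CD3E, a gene of the same complex, so this direction is a description and no support. CD3D had 751 and 774 CPM in members against 83.3 and 56.6 CPM (3.49 ± 0.28), CD3G 213 and 251 CPM against 16.1 and 19.8 CPM (3.71 ± 0.38), and TRAC 911 and 853 CPM against 105 and 150 CPM (2.85 ± 0.25). The granzyme GZMM had 81.8 and 138 CPM in members against 9.41 and 8.485 CPM (3.58 ± 0.50), so the members were not devoid of every granzyme. The GTPase GIMAP7 (2.90 ± 0.27), TIGIT (3.18 ± 0.41) and CD28 (3.48 ± 0.42) were also higher.

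The cells without CD3E were of several kinds. VPREB1, part of the surrogate light chain of early B cells, the myeloid genes LYZ, IL1B, APOE and FCGR2B, and the cell cycle genes ASPM and PCLAF had no UMI in any meningeal member, which put them at least 18.3-fold lower (ASPM and FCGR2B) to at least 55.3-fold lower (IL1B). Of 11 cell cycle genes tested, 10 were lower in members. KIT, a receptor of innate lymphoid and mast cells, had no UMI in meningeal members against 72.6 and 73.5 CPM, at least 13.4-fold lower. A narrower comparison, chosen after seeing the data, kept the 42 and 47 meningeal cells without UMIs of 15 B-lineage, myeloid and cycling markers. Then 70 of 1584 genes (4.42%) differed, 21 higher (1.33%) and 49 lower (3.09%), and 38 of them were among the 870.

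In the narrower comparison 4 of 8 T cell receptor genes tested were higher and none lower, with a median of 1.24 against -0.04 over all genes. The classes were again split by CD3E, so this direction too is a description and no support. There CD3D (2.27 ± 0.42), CD3G (2.11 ± 0.48), CD4 (1.74 ± 0.49, adjusted p = 0.0125), CD28 (1.54 ± 0.49) and TRAC (1.23 ± 0.38) were higher in members. GATA3 was not, at -0.29 (adjusted p = 0.908), and ICOS was at 0.18 (adjusted p = 0.958). In the wider comparison they had been 1.18 ± 0.31 and 2.33 ± 0.40; over alternatives the adjusted p ranged from 1.94e-05 to 0.991 for GATA3 and from 1.18e-10 to 0.958 for ICOS. All 7 genes of the NF-kB pathway and its feedback that could be tested were lower in members, with a median of -1.58, among them NFKBIA (-1.58 ± 0.38) and TNFAIP3 (-1.37 ± 0.36). The chemokine XCL1 (-6.69 ± 0.52), the adaptor TYROBP (-4.10 ± 0.46), STAT4 (-1.89 ± 0.42) and RORA (-1.39 ± 0.42), genes known from innate lymphoid and natural killer cells, were lower too. Of 12 immediate early genes tested there, 4 were lower and none higher in members. Of 10 retention genes, 3 were lower and none higher. Several genes that were higher in members than in CD3E cells with a cytotoxic gene did not pass here. They were TNFSF10 (-0.80 ± 0.36), GPR183 (-1.11 ± 0.38), LMNA (-0.34 ± 0.37), LTB (0.04 ± 0.38), SPOCK2 (0.61 ± 0.36), FGL2 (0.74 ± 0.37) and ITGB1 (1.08 ± 0.41).

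Between tissues, meningeal members were compared with the 12 splenic members. Of 2486 genes tested, 102 (4.1%) differed, 89 higher (3.58%) and 13 lower (0.523%) in meninges. Of the called genes, 17 had no UMI in splenic members, among 41 such genes tested. These 41 passed the filter on low counts through their meningeal sums alone, so they could only be called higher or not called. The direction of genes at 0 in spleen is therefore a description and no support. Fewer cells of a state and less RNA per cell cannot be told apart in these sums.

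Many immediate early, retention and NF-kB genes were higher in meningeal members. Of 12 immediate early genes tested, 9 were higher in meningeal members and none lower, with a median of 4.15 on the log2 scale, or 2.72 with the 4 genes at 0 in spleen set at their lower bound, against 0.14 over all genes. FOS had 2672 and 2771 CPM in meningeal members and no UMI in splenic members, at least 36.8-fold higher, and was found in 50 of 63 and 44 of 54 meningeal members. NR4A2 had 587 and 415 CPM in meningeal members and none in splenic members, at least 6.80-fold higher. DUSP1, a phosphatase, had 776 and 707 CPM in meningeal members against 69.4 and 38.2 CPM in splenic members (4.24 ± 0.65), and ZFP36, which destabilises cytokine RNA, 1893 and 1930 CPM against 139 and 153 CPM (4.05 ± 0.49). JUN had 1512 and 1462 CPM in meningeal members against 694 and 420 CPM in splenic members (1.87 ± 0.39).

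Of 11 retention genes tested, 7 were higher and none lower, with a median of 3.71, or 1.94 with 2 genes at their bound. CD69 had 1986 and 2203 CPM in meningeal members against 139 and 153 CPM in splenic members (4.18 ± 0.50, adjusted p = 2.88e-13). RGS1, which dampens chemokine signals, had 772 and 669 CPM in meningeal members and none in splenic members, at least 9.76-fold higher. CXCR4 had 882 and 467.5 CPM in meningeal members against 0 and 38.2 CPM in splenic members (5.08 ± 0.76), and LMNA 875 and 456 CPM against 139 and 0 CPM (4.08 ± 0.66). ITGB1 had 1729 and 1915 CPM in meningeal members against 3472 and 879 CPM in splenic members and did not pass. Of 5 NF-kB and feedback genes tested, NFKBIA (2.61 ± 0.51), REL (2.40 ± 0.68), BIRC3 (2.20 ± 0.61) and TNFAIP3 (at least 4.36-fold) were higher. The metallothionein MT2A (at least 12.4-fold), TENT5C (at least 7.89-fold), PRMT9 (at least 3.82-fold) and TIPARP (at least 3.501-fold) had no UMI in splenic members. IFIT2 and ISG15 were likewise at 0 in spleen, with the meningeal UMIs in the few cells described above.

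The cells' own markers did not pass between tissues. CD4 had 199 and 180 CPM in meningeal members against 417 and 76.4 CPM in splenic members (0.29 ± 0.58, adjusted p = 0.884), and GATA3 256 and 254 CPM against 139 and 115 CPM (1.40 ± 0.62, adjusted p = 0.246). ICOS had 189 and 101 CPM in meningeal members against 69.4 and 0 CPM in splenic members (adjusted p = 0.147). CTLA4 had 71.2 and 135 CPM in meningeal members (adjusted p = 0.0926). It was not listed in spleen, so its splenic count of 0 was filled in and stands for fewer than 3 cells of a channel. That 0 gives no bound on the fold, and the adjusted p rests on it. None of the 11 T cell receptor genes tested passed.

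Few genes were lower in meningeal members, and several of them had most splenic UMIs in 1 cell. IGHM had 121 and 18.7 CPM in meningeal members against 139 and 7836 CPM in splenic members, and JCHAIN 14.2 and 29.9 CPM against 69.4 and 1796 CPM; in splenic channel 2 all their UMIs, 205 and 47, were in 1 cell. PLAC8 (-2.96 ± 0.43), the class II gene MAMU-DRA (-2.03 ± 0.31), SEC11C (-1.78 ± 0.53), STARD3NL (-3.31 ± 0.62) and the class II invariant chain CD74 (-1.23 ± 0.32) were also lower. SEC11C lost the threshold in 9 of 12 alternatives (adjusted p from 0.002 to 1), CD74 in 7 of 13 (0.00156 to 0.553) and STARD3NL in 3 of 8 (3.22e-06 to 1). MAMU-DRA had 377 and 299 CPM in meningeal members against 1458 and 2026 CPM in splenic members. Without the cells with 10 or more UMIs of IGHM and JCHAIN, an alternative chosen after seeing the data, 21 genes were higher and 0 lower in meninges by edgeR. FOS, MT2A, RGS1, TENT5C and NR4A2 stayed past the threshold there, while MAMU-DRA (adjusted p = 0.263, range over alternatives 2.35e-10 to 0.392) did not. Over all alternatives only FOS of these held in 13 of 13. NR4A2, TENT5C and MAMU-DRA each lost the threshold in 2 of 13, and MT2A and RGS1 each in 1 of 13.

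**Figure D5:**
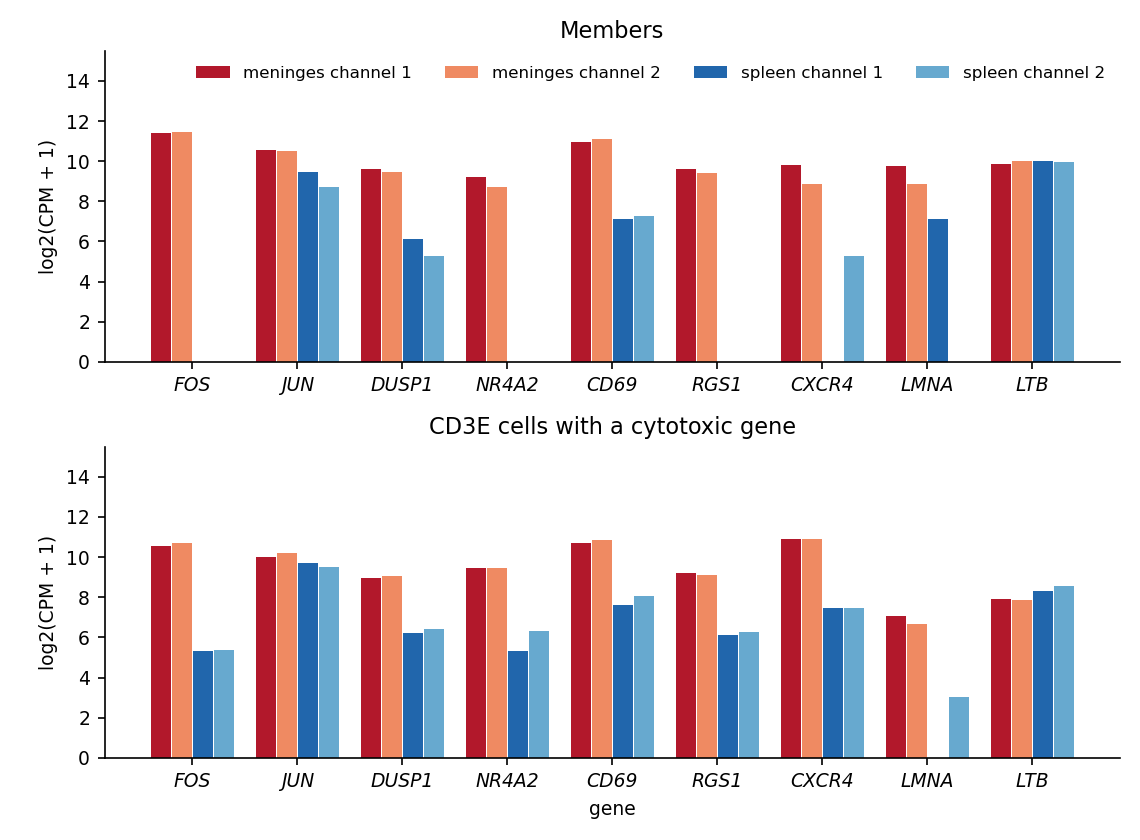
Level of 9 genes (x axis) as log2(CPM + 1) of summed UMIs (y axis, bars from 0) in the 4 channels, for members (upper panel) and CD3E cells with a cytotoxic gene (lower panel). FOS is at 2672 and 2771 CPM in meningeal members and at 0 in splenic members, and at 1515 and 1645 CPM in meningeal against 38.8 and 40.3 CPM in splenic CD3E cells with a cytotoxic gene.

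The tissue difference in early genes was not particular to members. In CD3E cells with a cytotoxic gene, 1451 of 8455 genes (17.2%) differed between tissues, 949 higher (11.2%) and 502 lower (5.94%) in meninges, and 17 of 19 immediate early genes tested were higher in meninges with a median of 2.86. There FOS had 1515 and 1645 CPM in meninges against 38.8 and 40.3 CPM in spleen (5.51 ± 0.12), and CD69 1675 and 1845 CPM against 197 and 268 CPM (3.09 ± 0.11). In a test of the difference between the 2 tissue effects, 14 of 5113 genes (0.274%) passed, 5 higher (0.0978%) and 9 lower (0.176%) in members relative to the other cells, and 429 had an unadjusted p under 0.05. None of 15 immediate early genes and none of 13 retention genes was among them, and their medians of 1.63 and 1.27 compare with 0.45 over all genes. The genes that passed were the interferon genes IFIT2, IFIT3 and ISG15, PSME2, FGL2 and, on the lower side, IGHM, JCHAIN, FAM3C, IRF4, MAMU-DRA, STARD3NL, PLAC8 and EAF2 together with 1 gene that has no symbol; EAF2 is named here after its value was seen.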

How the data were processed

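Per the submitters' processing notes the authors used Cell Ranger, and those notes name mm10; which macaque genome was used is not stated there or in the labels. The authors deposited raw UMI counts per gene and barcode, with each macaque table listing genes seen in at least 3 cells; an unlisted gene was counted as 0. The members and the gene lists were chosen with earlier results of these data known. No cluster step was used. Of 324 list genes, 287 were in the macaque tables. Counts were summed per channel and class and tested with edgeR 4.0.16 in R 4.3.3 (TMM, filterByExpr, quasi-likelihood, Benjamini-Hochberg adjustment over all genes tested, threshold 0.05). Class comparisons and the test of 2 tissue effects used both tissues with the channel as a block, and the tissue comparison used no block. SE is the log2 fold change over the square root of F. Other tools were DESeq2 1.42.0, scanpy 1.11.5 for Scrublet per library, and Python 3.11.15 with scipy 1.17.1 for exact intervals and the permutation test. Scrublet marked 1 member and 0 and 2 barcodes in the splenic channels, where it has not worked, so doublets there were not removed. No member exceeded 10% mitochondrial UMIs. Named genes were the markers, list members and, per comparison, the 10 largest rises and falls with a symbol, a mean log2 CPM of at least 6 and channels that did not overlap. The fits were tested on simulated counts. Deviations of same-numbered channels had a correlation of -0.0019 between tissues over 2486 genes. With 5 and 7 splenic members, this cannot tell whether channel numbers pair the tissues. Results of a few genes are not reported here.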

Additional observations from a re-analysis of the deposited data

Results flagged for a closer look

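Genes whose tissue difference in members differed from that in CD3E cells with a cytotoxic gene are given here with edgeR's adjusted p for the difference itself. IFIT2 (2.98e-05), ISG15 (0.00602), PSME2 (0.00602), IFIT3 (0.00602) and FGL2 (0.0179) had a higher meninges over spleen difference in members than in those cells, where none of the 5 passed between tissues. JCHAIN (4.99e-24), FAM3C (0.00104), IRF4 (0.00135), STARD3NL (0.0117) and PLAC8 (0.023) had a lower one. In CD3E cells with a cytotoxic gene, IRF4 was higher in meninges (2.81 ± 0.30), PLAC8 was lower (-0.83 ± 0.10), and JCHAIN, FAM3C and STARD3NL did not pass. The difference lost the threshold in 8 of 12 alternatives for PLAC8 (adjusted p from 0.00616 to 1), in 6 of 11 for STARD3NL (6.84e-05 to 1), in 5 of 12 for FGL2 (2.44e-05 to 1) and in 1 of 10 for JCHAIN (3.78e-29 to 0.541). For FAM3C and IRF4 it lost the threshold in 3 of 11 alternatives each and turned in 2 more (adjusted p up to 0.964 and 0.932). FGL2 had 793 and 677 CPM in meningeal members against 625 and 153 CPM in splenic members, and 178 and 163 CPM in meningeal against 171 and 213 CPM in splenic CD3E cells with a cytotoxic gene. PSME2, a proteasome activator subunit, had 167 and 172 CPM in meningeal members and none in the 12 splenic members, and 169 and 187 CPM in meningeal against 213 and 268 CPM in splenic CD3E cells with a cytotoxic gene. IRF4 and FAM3C had their splenic UMIs in 1 member of channel 2, 8 and 14 of them. Without the highest interferon cell of each sum, PSME2 had an adjusted p of 0.114 (range over alternatives 0.00602 to 0.608), and IFIT2, IFIT3 and ISG15 had adjusted p of 0.78, 0.827 and 0.694 (ranges from 2.09e-05, 0.00418 and 0.000262 up to 0.78, 0.964 and 1).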

How the results depend on the processing

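The difference of the mean member shares between meninges and spleen, 1.31 percentage points, was 0.621 with cells thinned to 1000 UMIs before the rule and 0.781 with 2 or more UMIs of IL7R and CD3E, and lay between 1.16 and 1.45 when a channel was left out. The count of genes that differed between meningeal and splenic members, 102, was 29 with DESeq2, 9 with thinned cells, 60 with the replicate block, 44 without cells holding HBA or HBB UMIs, 21 without immunoglobulin-bearing cells and 50 without the top interferon cell of each sum, and between 18 and 140 when a channel was left out. The labels do not say whether channel numbers pair the tissues, and the block is not a reading of paired animals. Against CD3E cells with a cytotoxic gene, 600 genes became 203 with DESeq2, 171 with thinned cells and 339 without HBA or HBB cells, and between 121 and 863 when a channel was left out; without the block, or with the meningeal channels alone, they were 751 and 820. Against IL7R cells without CD3E, 870 genes became 264 with DESeq2, 79 with thinned cells, 1443 with the meningeal channels alone, 433 without HBA or HBB cells and 70 in the narrower comparison, and between 56 and 1445 when a channel was left out. For the 2 tissue effects, 14 genes became 1 with DESeq2, 0 with thinned cells, 70 without immunoglobulin-bearing cells and 9 without the top interferon cell, and between 3 and 116 when a channel was left out. Thinned sums hold fewer molecules and tested fewer genes; the other causes were not tested. Of 1097 refitted values of named genes, 962 kept direction and side of the threshold, 128 lost the threshold and 7 turned: IFIT2 to -1.12 (against CD3E cells with a cytotoxic gene, without the top interferon cell), against IL7R cells without CD3E, GATA3 to -0.0922 with thinned cells and -0.29 in the narrower comparison, and, in the difference of tissue effects, IRF4 to 5.84 and FAM3C to 7.59 without splenic channel 2 (the lowest values with a channel left out being -5.65 and -4.72) and to 4.92 and 7.11 without immunoglobulin-bearing cells. The divisions by CD4 and CD8A and by CCL20 held under 20 cells a sum and were not run. Splenic members, 12 cells, set the limit of the tissue comparisons.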
